A study of Mus musculus with 12 samples.

Results

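Brain and spleen RNA of mice without the long noncoding RNA Norad was compared with that of wild-type mice at 8 genes, Uhmk1, Tmpo, Arl10, Glg1, Tmem167b, Zfp58, Crls1 and Tmem181b-ps, of the 24062 genes listed in each tissue. The 8 genes were named because their brain values in Norad-/- and Norad+/+ mice do not overlap, so the brain values below are a description without a test, and spleen, whose values the rule did not use, carries the tests. Norad-/- and Norad+/+ mice were C57BL/6 males of 10 weeks, with 3 libraries per genotype and tissue, each library from 1 mouse. Norad-/- mice carry a CRISPR/Cas9 deletion of the Norad sequence in every cell. The study made several independent deletion lines, and which line each sequenced mouse came from is not given in the sources used here. Levels are given in FPKM, which divides a gene's reads by the length of its transcripts and by the depth of the library. Each bulk value sums over all cells of the organ, so that fewer cells of a type and less RNA per cell cannot be told apart.

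Norad is a cytoplasmic RNA that binds proteins of the PUMILIO family. These proteins bind the Pumilio response element (PRE), UGUANAUA with N as any base, mostly in 3' UTRs, and recruit enzymes that shorten the poly(A) tail and lower the level of the message. The 8 genes do not form a known pathway. Uhmk1 encodes a kinase of splicing factors, Tmpo encodes the lamina-associated polypeptide 2 proteins of the nucleus, and Zfp58 encodes a zinc finger protein. Glg1 and Tmem167b encode membrane proteins of the Golgi, and Arl10 a small GTPase of the ARF-like family. Crls1 encodes cardiolipin synthase of the inner mitochondrial membrane, and Tmem181b-ps is annotated as a transcribed unprocessed pseudogene of the Tmem181 family.

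The PRE sequences of the members are shown because this element is what PUMILIO proteins bind. Of the 7 members with an annotated 3' UTR, Uhmk1, Glg1 and Crls1 hold 1 match to UGUANAUA each on the sense strand of the longest 3' UTR, and Tmpo, Arl10, Tmem167b and Zfp58 hold 0. At least 1 match is found in 24% of the 19279 listed genes with an annotated 3' UTR. The matches, from GENCODE M21 transcripts on GRCm38 and written 5' to 3' with the element in capitals, are these.
Uhmk1: acuauaaaUGUAGAUAgauguguu
Glg1: ggaaaaagUGUAUAUAguagaacu
Crls1: auaugucaUGUAAAUAggaugaaa
The Uhmk1 site lies at chr1:170193688-170193711 on the minus strand, 6300 bases after the stop codon in a 3' UTR of 6583 bases. The Glg1 site lies at chr8:111157492-111157515 on the minus strand, 387 bases after the stop codon in a 3' UTR of 3473 bases. The Crls1 site lies at chr2:132866655-132866678 on the plus strand, 739 bases after the stop codon in a 3' UTR of 861 bases. The median 3' UTR of the listed genes is 1002 bases long. In brain Uhmk1 and Glg1 were higher and Crls1 lower in Norad-/- mice, so the 3 genes with a match did not share a direction. A match is a description of the letters and not of binding.

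Norad itself, listed as 2900097C17Rik, was at most 0.0173 FPKM in the 6 Norad-/- libraries, against 206, 259 and 635 FPKM in Norad+/+ brain and 62, 42.9 and 56.3 FPKM in Norad+/+ spleen, so that every library matched its label. Estimated depth was 28.4 to 36.6 M reads in brain and 31.6 to 35.3 M reads in spleen. Norad+/+ replicate 3 stood apart in each tissue, with a median Spearman correlation with the other libraries of 0.9493 in brain and 0.9477 in spleen, against 0.9725 to 0.9788 for the other brain libraries and 0.9611 to 0.9713 for the other spleen libraries. Summed levels of 8 neuronal markers were 2060 to 2280 FPKM in Norad-/- brain and 2160 to 2510 FPKM in Norad+/+ brain, and those of 8 B and T lymphocyte markers were 1220 to 1430 FPKM in Norad-/- spleen and 1060 to 1300 FPKM in Norad+/+ spleen. Norad-/- brain replicate 3 held pituitary hormone RNA (Gh at 984 FPKM, and at most 0.311 FPKM in the other 5 brain libraries). Norad+/+ spleen replicate 3 held pancreas and liver RNA, with 7 markers summing to 315 FPKM (Ctrb1 at 80.4, Pnlip at 67.8 and Alb at 56.8 FPKM), against 3.22 to 9.44 FPKM in the other 5 spleens, where Alb was at 0. In spleen all 11 red cell precursor markers tested had log2 fold changes below 0, with a median of -3.65 and summed levels of 67.8 to 924 FPKM in Norad-/- and 704 to 2330 FPKM in Norad+/+. All 7 myeloid markers tested there were also below 0 (median -0.77). All 8 B and T lymphocyte markers were above 0 (median 0.40), though their sums overlapped. The median over all genes tested in spleen was -0.02.

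In brain Uhmk1, Glg1, Tmem167b and Zfp58 were higher in Norad-/- mice, and Tmpo, Arl10, Crls1 and Tmem181b-ps were lower. Uhmk1 showed the widest gap of the 8, with 4.35-fold higher mean FPKM in Norad-/- brain, and Arl10 the smallest log2 difference. Lack of overlap is what chose the genes, and 17.1% of the 13051 genes tested in brain had groups that did not overlap (10.6% higher and 6.56% lower in Norad-/-). In 34 of those genes (0.261%), the 8 members included, the nearest Norad-/- and Norad+/+ values were apart by at least 0.73 on the log2 scale, the gap of Crls1, which is the smallest among the members. The rule names the genes and sets no numeric limit, so no gene just outside it can be given. The median size of the log2 fold change was 1.11 over the members and 0.14 over all genes tested in brain. The choice of genes on these brain values favours a larger size, so this contrast is no result. All log2 fold changes are Norad-/- minus Norad+/+ on log2(FPKM + 0.1).

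**Figure D1:**
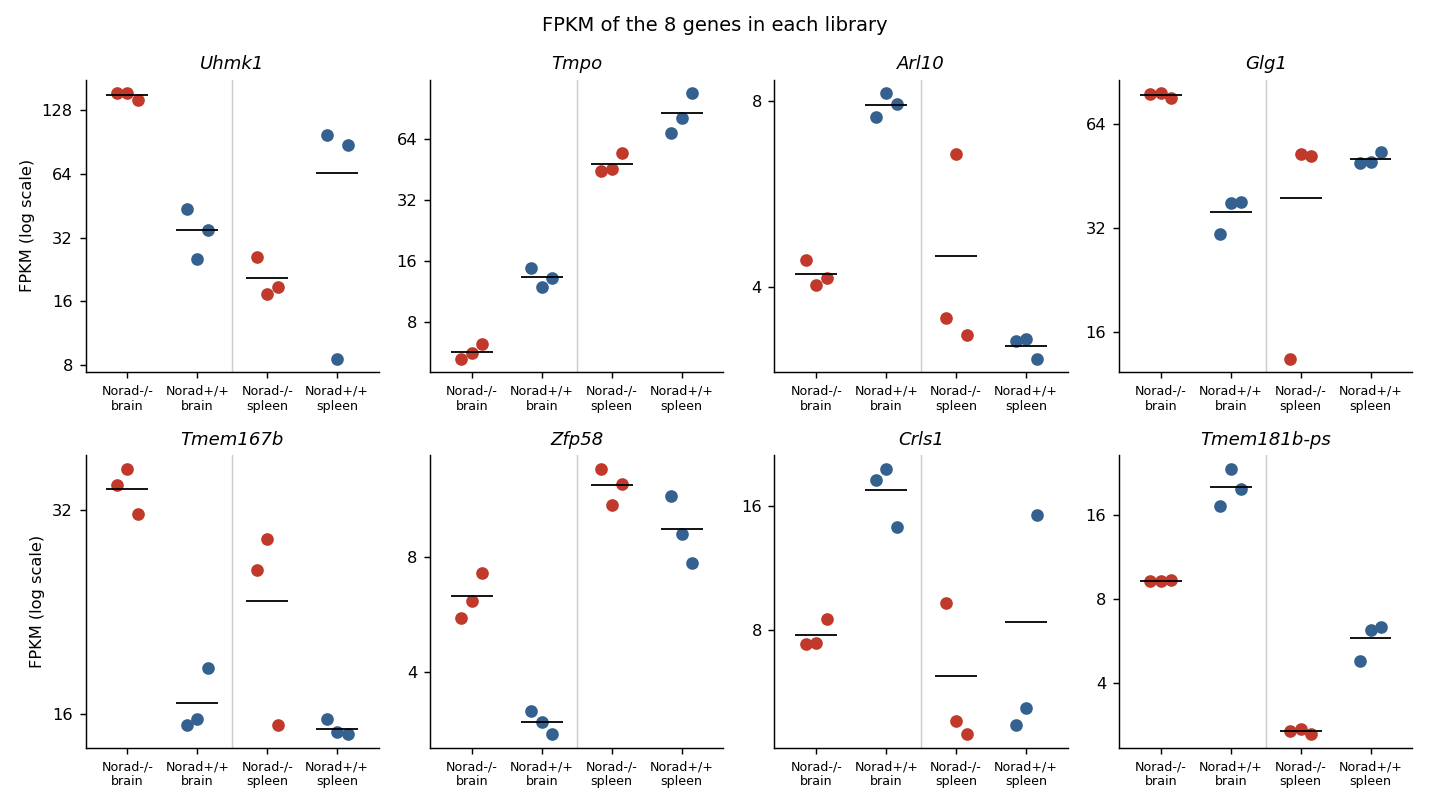
FPKM on a log axis of the 8 genes in each library, with Norad-/- left of Norad+/+ in brain and in spleen, points for libraries and lines for group means. In brain every Norad-/- point lies apart from every Norad+/+ point, as the choice of genes required. In spleen 3 of the 8 genes (Tmpo, Arl10 and Tmem181b-ps) have groups that do not overlap, beside 26.5% of all genes tested there. Arl10 is apart by 0.02 on the log2 scale, in the direction opposite to brain.

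Uhmk1 (ENSMUSG00000026667, GRCm38 chr1:170193420-170215397, minus strand) encodes the kinase KIS, which phosphorylates the splicing factor SF1 and the cell cycle inhibitor p27. Its level was 154, 154 and 143 FPKM in Norad-/- brain, against 43.7, 25.4 and 34.7 FPKM in Norad+/+ brain. The Norad-/- libraries were nearly alike, with a coefficient of variation of 4.12% against 26.5% in Norad+/+, and the log2 fold change was 2.15 (SE 0.20). In spleen Uhmk1 had 25.9, 17.4 and 18.8 FPKM in Norad-/-, against 98.1, 8.59 and 87.7 FPKM in Norad+/+. Norad+/+ spleen replicates 1 and 3 were high, and replicate 2 was the lowest of all 6, so the groups overlapped. The spleen log2 fold change was -1.04 (95% interval -3.28 to 1.20, limma adjusted p = 0.546). It was -2.18 (adjusted p = 0.211) without Norad+/+ replicate 2, -0.43 (adjusted p = 0.792) without Norad+/+ replicate 1 and -0.51 (adjusted p = 0.83) without Norad+/+ replicate 3.

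Tmpo (ENSMUSG00000019961, chr10:91147571-91181315, minus strand) has 13 annotated transcripts, and its products anchor chromatin to the nuclear lamina or bind lamin A in the nucleoplasm. It had 5.25, 5.59 and 6.21 FPKM in Norad-/- brain, against 14.8, 11.9 and 13.2 FPKM in Norad+/+ brain, a log2 fold change of -1.21 (SE 0.12). In spleen, where the gene was more abundant, it had 44.5, 45.6 and 54.6 FPKM in Norad-/-, against 68.5, 81.3 and 108 FPKM in Norad+/+. All 3 Norad-/- spleens lay below all 3 Norad+/+ spleens, the same order as in brain. The log2 fold change there was -0.81 (95% interval -1.25 to -0.37, limma adjusted p = 0.152) and did not pass the threshold over all genes.

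Zfp58 (ENSMUSG00000071291, chr13:67490167-67500555, minus strand) belongs to the KRAB zinc finger genes, whose products typically recruit silencing complexes to DNA. It had 5.55, 6.12 and 7.27 FPKM in Norad-/- brain, against 3.14, 2.95 and 2.73 FPKM in Norad+/+ brain, a log2 fold change of 1.07 (SE 0.13). In spleen it had 13.7, 11 and 12.5 FPKM in Norad-/-, against 11.6, 9.21 and 7.75 FPKM in Norad+/+. The spleen groups overlapped by 1 library on each side, Norad-/- replicate 2 and Norad+/+ replicate 1. The spleen log2 fold change was 0.39 (95% interval -0.01 to 0.80, limma adjusted p = 0.246).

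Glg1 (ENSMUSG00000003316, chr8:111154421-111259216, minus strand) encodes a Golgi sialoglycoprotein that binds fibroblast growth factors and, in mouse myeloid cells, serves as a ligand of E-selectin. It had 77.7, 78.4 and 75.9 FPKM in Norad-/- brain, against 30.7, 37.8 and 38 FPKM in Norad+/+ brain, a log2 fold change of 1.13 (SE 0.12). The spleen values were 13.4, 52.1 and 51.5 FPKM in Norad-/-, against 49.3, 49.7 and 52.9 FPKM in Norad+/+. A single library, Norad-/- spleen replicate 1, was low, and the other 5 lay within a narrow band. The log2 fold change there was -0.61 (95% interval -1.88 to 0.65, limma adjusted p = 0.527), and 0.03 (adjusted p = 0.887) without that library.

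Tmem167b (ENSMUSG00000068732, chr3:108556425-108562466, minus strand) encodes a small membrane protein related to fly kish, which acts in secretion in Drosophila. It had 34.9, 36.9 and 31.6 FPKM in Norad-/- brain, against 15.4, 15.7 and 18.7 FPKM in Norad+/+ brain, a log2 fold change of 1.05 (SE 0.12). In spleen it had 26.1, 29 and 15.4 FPKM in Norad-/-, against 15.7, 15 and 14.9 FPKM in Norad+/+. Norad-/- spleen replicates 1 and 2 were high, while replicate 3 lay among the Norad+/+ spleens. The spleen log2 fold change was 0.58 (95% interval 0.01 to 1.14, limma adjusted p = 0.236). It was 0.85 (adjusted p = 0.0454) without Norad-/- replicate 3, the library that lay among the Norad+/+ spleens. In that fit 93 genes passed, against 4 with all spleen libraries. Leaving out any other single spleen library gave an adjusted p of 0.229 to 0.502 for Tmem167b.

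Arl10 (ENSMUSG00000025870, chr13:54575015-54581128, plus strand) belongs to a family whose better known members act in membrane traffic and cilia. It had 4.42, 4.03 and 4.13 FPKM in Norad-/- brain, against 7.53, 8.25 and 7.93 FPKM in Norad+/+ brain, a log2 fold change of -0.90 (SE 0.09). The spleen values were 3.56, 6.56 and 3.34 FPKM in Norad-/-, against 3.27, 3.29 and 3.06 FPKM in Norad+/+. The spleen groups did not overlap, but in the opposite direction to brain and by a narrow margin, and Norad-/- replicate 2 alone was high. The log2 fold change there was 0.40 (95% interval -0.22 to 1.03, limma adjusted p = 0.403), and 0.10 without that library.

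Crls1 (ENSMUSG00000027357, chr2:132846666-132866785, plus strand) encodes the enzyme of the last step of cardiolipin synthesis. It had 7.41, 7.46 and 8.52 FPKM in Norad-/- brain, against 18.5, 19.7 and 14.2 FPKM in Norad+/+ brain, a log2 fold change of -1.14 (SE 0.15). In spleen it had 9.29, 4.83 and 4.47 FPKM in Norad-/-, against 4.72, 5.18 and 15.2 FPKM in Norad+/+. Each genotype had 1 high spleen, Norad-/- replicate 1 and Norad+/+ replicate 3, and the other 4 lay close together. Norad+/+ replicate 3 is the spleen with pancreas and liver RNA (a marker sum of 315 FPKM), and the part of that RNA in the value of 15.2 FPKM was not tested. The spleen log2 fold change was -0.29 (95% interval -1.52 to 0.94, limma adjusted p = 0.771), and 0.24 (adjusted p = 0.748) without Norad+/+ replicate 3.

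Tmem181b-ps (ENSMUSG00000096780, chr17:6438524-6467022, minus strand) had the most uniform Norad-/- values of the 8 genes in brain. It had 9.26, 9.32 and 9.37 FPKM in Norad-/- brain, against 17.2, 23.4 and 19.8 FPKM in Norad+/+ brain, with coefficients of variation of 0.607% and 15.3% and a log2 fold change of -1.09 (SE 0.13). The spleen values were 2.7, 2.76 and 2.63 FPKM in Norad-/-, against 4.82, 6.21 and 6.39 FPKM in Norad+/+. Both tissues thus showed the same order, and the spleen groups were separated by 0.78 on the log2 scale. The log2 fold change there was -1.07 (95% interval -1.39 to -0.75, limma adjusted p = 0.1), close in size to that of brain, and it did not pass the threshold over all genes. Without Norad+/+ spleen replicate 1, the Norad+/+ spleen nearest the Norad-/- values, it was -1.19 (adjusted p = 0.0351). In that fit 20 genes passed, against 4 with all spleen libraries. Leaving out any other single spleen library gave an adjusted p of 0.0741 to 0.38 for Tmem181b-ps.

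Over the 8 genes, 0 passed an adjusted p of 0.05 in spleen by limma, where 0.0323% of the 12397 genes tested did (0.00807% higher and 0.0242% lower in Norad-/-). At an unadjusted p under 0.05 there were 3 (Tmpo, Tmem167b and Tmem181b-ps), beside 21.0% of all genes tested (7.42% higher and 13.6% lower). Groups did not overlap in 3 of the 8 (37.5%), beside 26.5% of all genes tested (11.6% higher and 14.9% lower). The sign of the spleen log2 fold change was that of brain for 5 genes (Tmpo, Tmem167b, Zfp58, Crls1 and Tmem181b-ps) and the opposite for 3 (Uhmk1, Arl10 and Glg1). The median size of the log2 fold change in spleen was 0.59 over the members and 0.17 over all genes tested. Such a size also grows with the spread within a genotype, so it does not measure a genotype effect alone. That spread (SD on the log2 scale) was 1.41 for Uhmk1, 0.79 for Glg1 and 0.77 for Crls1, against 0.16 for the median gene. Glg1 was at 0.03 without Norad-/- spleen replicate 1, and Arl10 at 0.10 without Norad-/- spleen replicate 2. Whether the difference between tissues exceeds error was not tested, since the genes were chosen on brain.

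**Figure D2:**
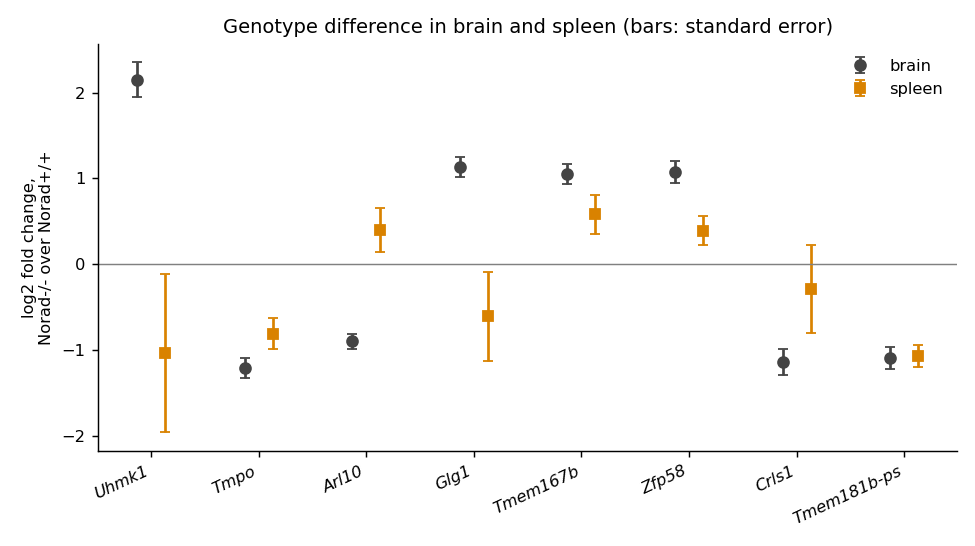
Log2 fold change of Norad-/- against Norad+/+ (vertical axis) of the 8 genes in brain and in spleen, with bars for the standard error. The brain values run between -1.21 and 2.15 with short bars, which the choice of genes on brain values favours. In spleen, whose values the choice did not use, the bars are longest for Uhmk1, Glg1 and Crls1.

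In brain the choice of genes fixes the direction with any 1 library left out, so the values without a library that stood apart describe size alone. Without Norad+/+ brain replicate 3 the log2 fold changes were 2.17 for Uhmk1, -1.28 for Crls1 and -1.10 for Tmem181b-ps. Without Norad-/- brain replicate 3, the library with pituitary hormone RNA, Zfp58 was at 0.96 and Tmpo at -1.28. In spleen, without Norad+/+ replicate 3, Tmpo was at -0.63 (adjusted p = 0.281) and Tmem181b-ps at -0.99 (adjusted p = 0.252).

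In spleen 7 of the 8 members varied within a genotype more than the median gene did, and which libraries were high differed between members. The SD within a genotype on the log2 scale was 1.41 for Uhmk1, 0.79 for Glg1 and 0.77 for Crls1, above 98.9%, 96.3% and 96% of the genes tested in spleen, where the median gene had 0.16. Arl10 (0.37) and Tmem167b (0.35) lay above 85.8% and 83.8% of genes. Tmpo (0.26), Zfp58 (0.23) and Tmem181b-ps (0.16) lay nearer the middle. Several members had a wide step between neighbouring spleen libraries. For Glg1 and Arl10 a single library lay beyond it, and the high spleens of Crls1 differed between themselves (9.29 and 15.2 FPKM). The widest step between neighbouring libraries was 1.87 for Glg1, 1.75 for Uhmk1, 0.86 for Arl10, 0.83 for Crls1 and 0.73 for Tmem167b, against a median step of 0.22 over all genes. The libraries on the high side were Norad+/+ 1 and 3 for Uhmk1, all but Norad-/- 1 for Glg1, Norad-/- 2 for Arl10, Norad-/- 1 and Norad+/+ 3 for Crls1, and Norad-/- 1 and 2 for Tmem167b. The same members lay between 6.9% and 72.4% of genes in their brain SD within a genotype, a measure that the choice of genes used. Of the 8, Tmem181b-ps was the gene whose widest step in spleen (0.78) fell between the genotypes.

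**Figure D3:**
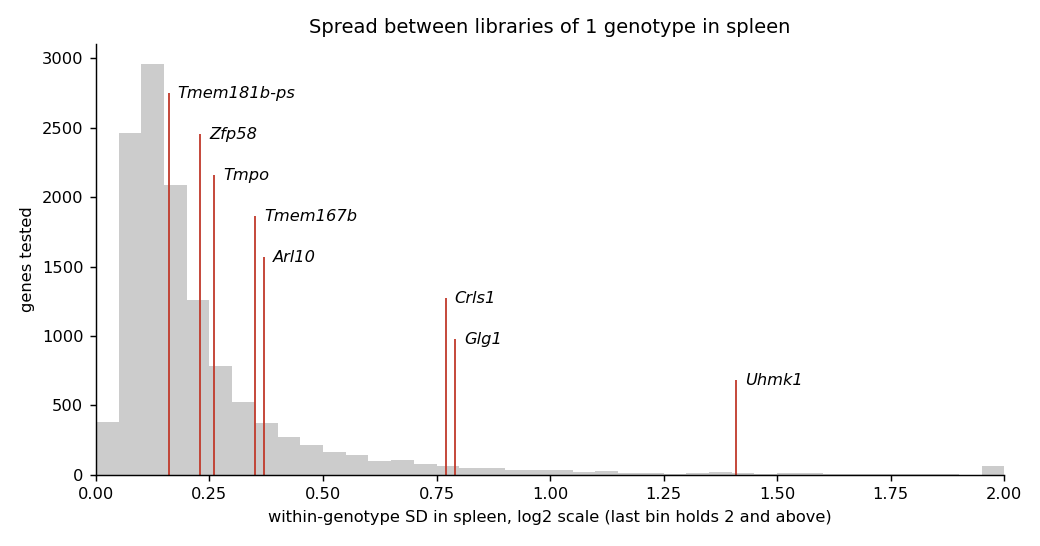
Distribution over the genes tested in spleen of the SD within a genotype on the log2 scale (horizontal axis, the last bin holding 2 and above) by number of genes (vertical axis), with red lines for the 8 members. Uhmk1, Glg1 and Crls1 lie in the far right tail at 1.41, 0.79 and 0.77, and Tmem181b-ps lies at the median of 0.16.

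The transcript models of the members differ in length, which bears on FPKM because length enters the scaling. Annotated transcripts run over 353 to 1046 bases for Arl10, 471 to 4441 for Tmpo, 613 to 2391 for Zfp58, 703 to 1924 for Crls1, 1413 to 2426 for Tmem181b-ps, 2145 to 7021 for Glg1, 2752 to 2864 for Tmem167b and 7676 to 7864 for Uhmk1. Values here are per gene, and transcripts were not analysed. Whether transcript use moved with a level was not tested.

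Levels in Norad+/+ mice placed the members in both tissues, with each tissue scaled on its own in a separately deposited table. In brain the order of mean FPKM was Glg1 (35.5 ± 4.17), Uhmk1 (34.6 ± 9.15), Tmem181b-ps (20.1 ± 3.08), Crls1 (17.4 ± 2.89), Tmem167b (16.6 ± 1.81), Tmpo (13.3 ± 1.45), Arl10 (7.9 ± 0.358) and Zfp58 (2.94 ± 0.205) (SD, n = 3 each). Ranges overlapped between the neighbours Glg1 and Uhmk1, Tmem181b-ps and Crls1, and Crls1 and Tmem167b, and not between the other neighbours in that order. Tmpo was 6.46-fold and Zfp58 3.24-fold higher in Norad+/+ spleen than in Norad+/+ brain, and Tmem181b-ps was 3.47-fold and Arl10 2.47-fold higher in brain, each with no overlap of the 3 libraries. Ranges of Uhmk1, Crls1 and Tmem167b overlapped between the tissues.

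Relatives of the members by role were looked at next, in lists chosen with earlier results of these data known. In no list did a gene pass the adjusted threshold in either tissue by limma, which 0.0153% of genes did in brain, all of them lower in Norad-/-. Counts are therefore given at an unadjusted p under 0.05, reached by 6.62% of all genes in brain (3.73% higher and 2.89% lower) and by the 21.0% in spleen. A list of 15 genes around Uhmk1 held factors of splice site recognition, splicing factor kinases, and Cdkn1b (p27) and Stmn1 (stathmin), which are KIS substrates and not splicing genes. Of these, 0 were higher and 1 lower in brain (U2af2, the partner of SF1, log2 fold change -0.74, adjusted p = 0.71), with a median of -0.00 that was 0.03 after rescaling to TPM. Sf1, a substrate of KIS, was at -0.23 (adjusted p = 0.718). In spleen 3 of the 15 were higher, all of them splicing factor kinases, Srpk1 (0.34, adjusted p = 0.152), Srpk2 (0.29, adjusted p = 0.152) and Clk2 (0.19, adjusted p = 0.216). The 1 lower in spleen was Stmn1 (-0.96, adjusted p = 0.165), which encodes a regulator of microtubules.

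Among the genes of the nuclear lamina and inner nuclear membrane, which share Tmpo's compartment, 1 of 19 was higher and 1 lower in brain, with a median of 0.03, and 0 of 20 were higher and 3 lower in spleen, with a median of 0.02. Lmnb1, which encodes lamin B1, was at 0.14 (adjusted p = 0.859) in brain, and in spleen at -0.81 (adjusted p = 0.159), and Lmna at -0.33 (adjusted p = 0.764) and -1.25 (adjusted p = 0.222). Tmpo RNA is known to be abundant in dividing cells. In spleen all 16 markers of dividing cells had log2 fold changes below 0, 15 of them at an unadjusted p under 0.05, with a median of -1.31, Lmnb1 being on both lists. Their summed level was 238, 244 and 450 FPKM in Norad-/- spleen, against 429, 709 and 976 FPKM in Norad+/+ spleen. Norad-/- replicate 3 and Norad+/+ replicate 1 overlapped in that sum and also held the highest Norad-/- and the lowest Norad+/+ Tmpo. The red cell precursor sum was 83.4, 67.8 and 924 FPKM in Norad-/- spleen, against 704, 1740 and 2330 FPKM in Norad+/+ spleen. The part of these cells in the spleen values of Tmpo was not tested. In brain the dividing cell markers had a median of 0.04, with sums of 29.6 to 33.5 FPKM in Norad-/- and 27.9 to 32.5 FPKM in Norad+/+, beside Tmpo at -1.21.

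**Figure D4:**
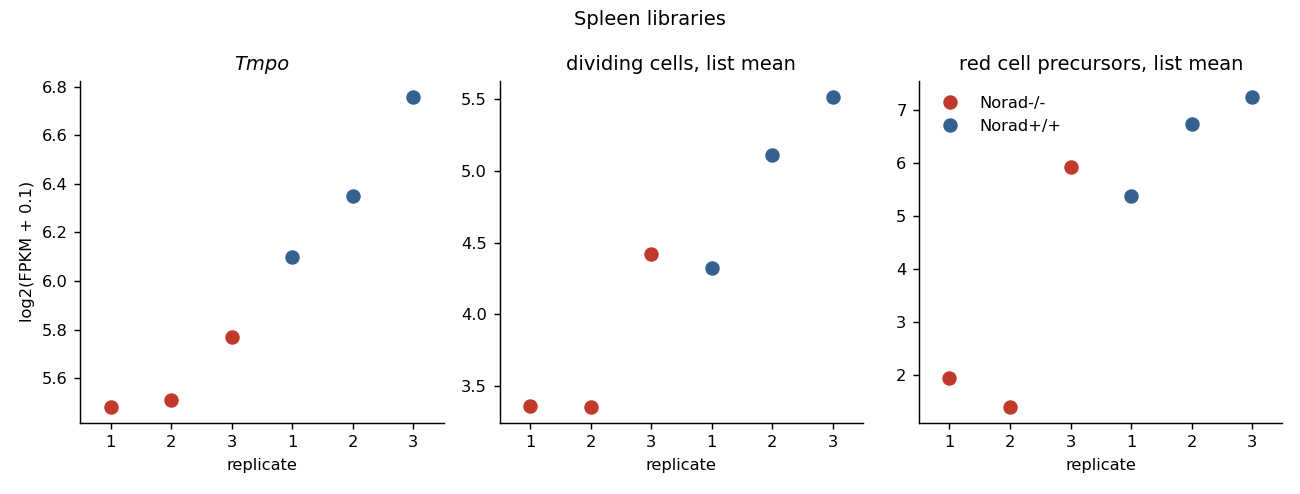
Level on the log2(FPKM + 0.1) scale (vertical axes) in each spleen library, with the 3 Norad-/- replicates left of the 3 Norad+/+ replicates, of Tmpo and of the mean over the dividing cell and red cell precursor markers. Norad+/+ replicate 3, with the highest Tmpo at 108 FPKM, also has the highest marker means (5.52 and 7.25), and Norad-/- replicate 3 lies above Norad+/+ replicate 1 in both marker lists but not in Tmpo.

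Of the ARF and ARF-like GTPases, relatives of Arl10, 2 of 24 were higher and 2 lower in brain, with a median of 0.03. Those 4 were Arf4 (0.45, adjusted p = 0.625), Arf1 (0.56, adjusted p = 0.718), Arf5 (-0.52, adjusted p = 0.623) and Arl5a (-0.37, adjusted p = 0.69). In spleen 0 of 26 were higher and 5 lower, with a median of -0.08 that was 0.04 after rescaling to TPM. Of 27 Golgi residents and tethers, 0 were higher and 0 lower in brain (median -0.07), and 1 was higher and 1 lower in spleen (median 0.00), the lower one being Golim4 (-0.59, adjusted p = 0.165).

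Tmem167, the other kish gene beside Tmem167b, had 8.68, 4.67 and 9.15 FPKM in Norad-/- brain, against 4.46, 4.53 and 3.66 FPKM in Norad+/+ brain, a log2 fold change of 0.76 (adjusted p = 0.71). Its Norad-/- replicate 2 lay close to the Norad+/+ libraries. In spleen it had 4.04, 6.54 and 3.82 FPKM in Norad-/-, against 4.82, 5.15 and 9.16 FPKM in Norad+/+, with overlap.

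Cardiolipin synthesis, remodelling and transfer genes gave 0 of 15 higher and 0 lower in either tissue. The list's median was 0.13 in brain, and -0.09 in spleen, or 0.03 there after rescaling to TPM and 0.01 after quantile normalization. Pgs1 and Ptpmt1, which act before Crls1 in the same pathway, were at 0.01 (adjusted p = 0.971) and -0.02 (adjusted p = 0.967) in brain, beside Crls1 at -1.14.

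Zfp58 lies among zinc finger genes on chromosome 13, of which 15 were tested in brain and 16 in spleen, Zfp58 not counted. At an unadjusted p under 0.05, 1 was higher and 0 lower in brain (median 0.15), and 2 were higher and 0 lower in spleen (median 0.12), beside medians over all genes of 0.02 and -0.02. Zfp874b, which neighbours Zfp58 on one side, had 2.96, 3.34 and 3.56 FPKM in Norad-/- brain, against 2.38, 2.82 and 2.72 FPKM in Norad+/+ brain (log2 fold change 0.31, adjusted p = 0.718). In spleen it had 5.32, 5.15 and 5.17 FPKM in Norad-/-, against 4.36, 4.94 and 5.09 FPKM in Norad+/+ (0.12, adjusted p = 0.49). Its groups did not overlap in either tissue. Zfp87, on its other side, was at 0.24 (adjusted p = 0.718) in brain, and in spleen at 0.22 (adjusted p = 0.233). Both were thus on the side of Zfp58, and far smaller than its 1.07 in brain.

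No nearest listed gene of the other members passed the threshold in either tissue. Uap1 beside Uhmk1 was at 0.03 (adjusted p = 0.967), Slc25a3 beside Tmpo at 0.02 (adjusted p = 0.962) and 9430091E24Rik and Rfwd3 on the sides of Glg1 at 0.02 (adjusted p = 0.964) and -0.04 (adjusted p = 0.919) in brain. On the sides of Arl10, 4833439L19Rik was at 0.22 (adjusted p = 0.777) and Nop16 at -0.15 (adjusted p = 0.854) in brain. Taf13 beside Tmem167b was at 0.27 (adjusted p = 0.718). Mcm8, a DNA helicase gene beside Crls1, was at 0.08 (adjusted p = 0.873) in brain, and in spleen at -0.77 (adjusted p = 0.167). Sh2d1b2 was at 0 in all 12 libraries, and Rmst, Scarna2 and Lrrn4 were below the filter in both tissues and not tested.

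Beside Tmem181b-ps lies Dynlt1b. This dynein light chain gene, whose annotated end is 2228 bases away on the opposite strand, had 0.0898, 0.0362 and 0 FPKM in Norad-/- brain, against 0.199, 0.329 and 0.36 FPKM in Norad+/+ brain. The spleen values were 0.0392, 0.03 and 0.0363 FPKM in Norad-/-, against 0.368, 0.276 and 0.346 FPKM in Norad+/+. The groups did not overlap in either tissue, as for the pseudogene, but these values lie below the filter of 1 FPKM and rest on few reads, and they were not tested. Dynlt1c, on the other side, was below the filter in brain and at -0.07 (adjusted p = 0.838) in spleen.

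Of the windows of 75 bases, the read length, in the annotated transcripts of Tmem181b-ps, 41.1% also occur in transcripts of other loci, Tmem181a and Tmem181c-ps among them, so its values are uncertain. By the study's methods, reads without a unique position in the genome were discarded before later steps, so a read that fits several loci equally would be dropped and not assigned to a copy. Tmem181a, which encodes a membrane protein, had 3.33, 3.21 and 3.67 FPKM in Norad-/- brain, against 3.34, 3.43 and 2.27 FPKM in Norad+/+ brain. It had 1.27, 1.45 and 1.16 FPKM in Norad-/- spleen, against 1.31, 0.927 and 1.39 FPKM in Norad+/+ spleen. Neither tissue separated the genotypes at Tmem181a (log2 fold change of 0.19 in brain and 0.10 in spleen), and Tmem181c-ps stayed below 0.5 FPKM. The other members share 0% of such windows with another locus. Zfp58 shares 44.8%, Tmem167b 14.1%, Uhmk1 4.33% and Tmpo 1.54% with a second gene model annotated at the same place.

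**Figure D5:**
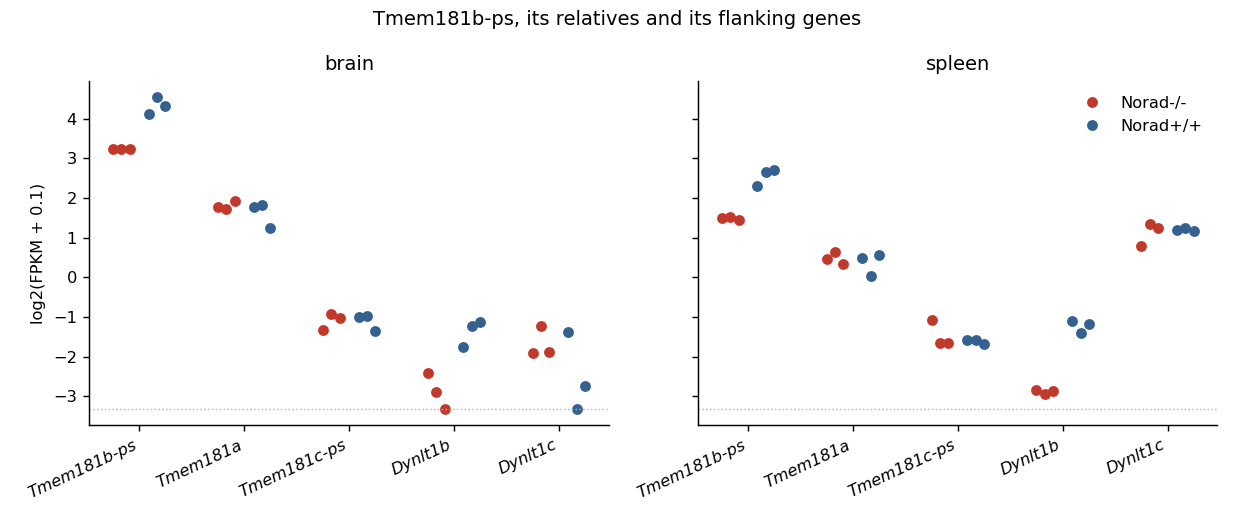
Level on the log2(FPKM + 0.1) scale (vertical axis) of Tmem181b-ps, its relatives Tmem181a and Tmem181c-ps and its flanking genes Dynlt1b and Dynlt1c, a point for each library, with Norad-/- left of Norad+/+ and a dotted line at 0 FPKM. The genotypes are apart in both tissues at Tmem181b-ps and, below 0.4 FPKM, at Dynlt1b, and overlap at Tmem181a.

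Genes whose pattern was most like that of a member were found over the 12 libraries, with each tissue centred on its own mean so that the difference between tissues did not count. The libraries share genotype groups, and in brain the members were chosen for a genotype difference, so these values of Pearson's r are descriptions. Norad was the gene most like Tmem181b-ps (r = 0.96) and Tmpo (r = 0.94), the members with the same order of genotypes in both tissues. Arl10 was most like Rhot1 (r = 0.97), which encodes the Miro1 GTPase that moves mitochondria along microtubules. Rhot1 had 6.82, 7.03 and 7.01 FPKM in Norad-/- brain, against 16, 18.9 and 12.9 FPKM in Norad+/+ brain. In spleen Rhot1 had 5.37, 10.5 and 5.08 FPKM in Norad-/-, against 4.9, 5.21 and 4.8 FPKM in Norad+/+. Both genes were therefore lower in Norad-/- brain and highest among spleens in the same library, Norad-/- replicate 2.

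Crls1 was most like Mpc1 (r = 0.92), a subunit of the mitochondrial pyruvate carrier, and Exoc3l (r = 0.90). Mpc1 had 2.01, 1.92 and 1.83 FPKM in Norad-/- brain, against 2.99, 3.23 and 3.37 FPKM in Norad+/+ brain, and 1.61, 1.2 and 1.16 FPKM in Norad-/- spleen, against 0.901, 1.16 and 1.99 FPKM in Norad+/+ spleen. Its high spleens were those of Crls1. The other pairs were Uhmk1 with Cryzl1 (r = 0.88) and Kdelc2 (r = 0.87), Glg1 with Zfp239 (r = 0.86) and Pxdn (r = 0.86), Tmem167b with Tbpl1 (r = 0.90) and Chfr (r = 0.90), Zfp58 with Mbtd1 (r = 0.92) and Arntl (r = 0.89), Arl10 with Phf2 (r = 0.96), Tmpo with Pcbd2 (r = 0.92) and Tmem181b-ps with Tmpo (r = 0.92).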

How the data were processed

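The deposited values are FPKM per gene, made by the authors from stranded 75-base single reads of poly(A)-selected RNA. Low-quality reads were removed, the rest were aligned to GRCm38 with TopHat2 2.0.12, reads without a unique position in the genome were discarded, and FPKM was computed with StringTie 1.2.2. The authors' own counts and comparison (featureCounts 1.4.6, edgeR 3.8.6) were not used. Of the value columns, 0 belong to no sample. Sequencing depth was inferred from the FPKM worth of 1 read at low genes. Of values up to 0.1 FPKM, 44.4% to 49% were whole reads within 2% and the rest were not, so the depth is approximate. At such a depth low values rest on few reads.

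A gene entered the comparison in a tissue where its 6 libraries averaged 1 FPKM or more, and was compared on log2(FPKM + 0.1), which understates changes of low genes, with limma 3.58.1 (R 4.3.3, variance trend, two-sided, each tissue on its own). p was adjusted by Benjamini-Hochberg over all genes of a tissue at a threshold of 0.05. It weighs the difference between genotypes against the spread between these libraries within a genotype. Brain and spleen may come from the same mice. The steps were also run on simulated data with normal noise, independent between genes. Those data hold no library with RNA of another tissue, so the run does not bear on such libraries. The members and lists were chosen with earlier results of these data known. Named genes are the members, the nearest listed gene on each side, the 2 genes of highest correlation with each, up to 4 genes of a list with the smallest brain p or a direct role, and Norad. Further list genes in spleen (Srpk1, Srpk2, Clk2, Stmn1, Lmna and Golim4) and Dynlt1b, Tmem181a and Tmem167 as relatives were named after their values were seen. Annotation and transcript sequences are GENCODE M21. Tables and figures used Python 3.11.15, pandas 2.3.3, numpy 2.4.6 and matplotlib 3.10.9. Also tried were pseudocounts of 0.01 and 1 FPKM, no filter or one of 5 FPKM, quantile and TPM scaling, limma without the trend, the replicate block, and each library left out in turn.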

Additional observations from a re-analysis of the deposited data

Results flagged for a closer look

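Arl10 was lower in every Norad-/- brain than in every Norad+/+ brain (log2 fold change -0.90). It was higher in every Norad-/- spleen than in every Norad+/+ spleen (0.40, limma adjusted p = 0.403). Most of the spleen value came from Norad-/- replicate 2 (6.56 FPKM), and it was 0.10 without that library. Groups did not overlap in 17.1% of all genes tested in brain and 26.5% in spleen. The difference between tissues was not tested. In spleen the nearest values were 3.34 FPKM in Norad-/- and 3.29 FPKM in Norad+/+.

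Pxdn, which encodes peroxidasin of the extracellular matrix, was named for its likeness to Glg1, which was at 1.13 in brain and -0.61 in spleen. A choice by likeness favours the same signs, so the signs of Pxdn are a description. Pxdn was higher in every Norad-/- brain (0.26) and lower in every Norad-/- spleen (-0.26). It had 9.73, 9.43 and 8.63 FPKM in Norad-/- brain, against 8.32, 7.45 and 7.4 FPKM in Norad+/+ brain, and 0.794, 1.14 and 0.989 FPKM in Norad-/- spleen, against 1.17, 1.14 and 1.2 FPKM in Norad+/+ spleen, where the nearest values are equal at the digits given. The difference between tissues was not tested.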

How the results depend on the processing

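In brain 2 genes passed the threshold, and 1 did with the replicate block. Leaving out 1 library gave 1 to 15 (1 without Norad-/- or Norad+/+ replicate 1, 9 without Norad+/+ replicate 2, 15 without Norad+/+ replicate 3). In spleen 4 passed, and 2 with no filter, with quantile normalization or after rescaling to TPM, and 1 with the replicate block. Leaving out 1 library gave 1 to 93 (1 without Norad-/- replicate 1, 2 without Norad-/- replicate 2 or Norad+/+ replicate 2, 93 without Norad-/- replicate 3, 20 without Norad+/+ replicate 1, 15 without Norad+/+ replicate 3). The cause was not tested. Rescaling to TPM moved the median of all genes in spleen to 0.10, against -0.02 as reported. Of the members' values under these settings, 106 of 110 in spleen kept their direction and their side of the threshold. In brain, where values have no test and the choice of genes fixes the direction, 109 of 111 moved by less than 1 SD. The exceptions were Arl10 (-0.78) and Zfp58 (0.89) in brain with a pseudocount of 1 FPKM, Tmem167b (0.85, adjusted p = 0.0454) without Norad-/- spleen replicate 3, Tmem181b-ps (-1.19, adjusted p = 0.0351) without Norad+/+ spleen replicate 1, Glg1 (0.033, adjusted p = 0.887) without Norad-/- spleen replicate 1 and Crls1 (0.241, adjusted p = 0.748) without Norad+/+ spleen replicate 3. Over the leave-one-out fits the spleen values ran between -1.19 and -0.99 for Tmem181b-ps (adjusted p = 0.0351 to 0.38), -0.96 and -0.63 for Tmpo (adjusted p = 0.094 to 0.447), 0.40 and 0.85 for Tmem167b (adjusted p = 0.0454 to 0.502), -2.18 and -0.43 for Uhmk1 (adjusted p = 0.211 to 0.83), 0.10 and 0.58 for Arl10, 0.26 and 0.55 for Zfp58, -0.94 and 0.03 for Glg1 and -0.62 and 0.24 for Crls1. The labels do not say whether libraries of the same replicate number were paired, and the main fits do not pair them. Deviations of same-numbered libraries correlated at 0.061, 0.0684 and 0.11 in brain and at 0.338, -0.147 and 0.29 in spleen, and each library correlated best with its own number in brain but not in spleen.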
